A study of Homo sapiens with 6 samples.

Results

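The tricarboxylic acid cycle genes described here are CS, IDH3A, IDH3B, OGDH, DLST, SUCLG1, SUCLG2, FH and MDH2, 9 genes of the 17104 in the deposited count table. They were chosen by name, and 9 of 9 have a row. The labels name the cells as the line HBMEC, from the endothelium of small vessels of the human brain, and total RNA was sequenced. The control group of 3 libraries came from normal culture. The other 3 came from cells put through OGD/R (deprivation of oxygen and glucose, then reperfusion), a culture model in which both are withdrawn and then returned. Both groups are the same line with no stated genetic change, and how long deprivation and return lasted is not stated in any label. No label ties the 3 libraries of a group to separate cultures. The p-values therefore measure only the spread between these samples, and that spread may be technical.

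The cycle runs in the mitochondrial matrix, where it oxidises the acetyl group of acetyl-CoA to carbon dioxide and passes the electrons to NAD and, through succinate dehydrogenase, to ubiquinone. Its reduced products feed the respiratory chain, and its intermediates are drawn off for amino acid, lipid and haem synthesis. Cultured endothelial cells are known to take much of their energy from glycolysis, while the cycle also serves them as a source of building blocks.

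CPM below are counts scaled to a common library size by TMM. Total counts were 31048662 to 34484647 per library, and the 9 genes had between 864 and 10113 counts each in a library. Of 20 endothelial markers, 8 had a row. The other 12, among them the defining markers PECAM1, VWF, KDR and CLDN5, had no row. Each gene in the table reaches 10 counts in 3 or more libraries, which points to a filter ahead of deposit. If that filter is the only reason for a missing row, each of the 12 reached 10 counts in fewer than 3 libraries. Each library held at least 31048662 counts, so the 12 would then be near the floor. The counts of the 12 themselves cannot be checked. The 8 with a row summed to 291 to 307 CPM in control and 294 to 307 CPM after OGD/R. Most of this was ESAM (138 CPM in control), ENG (78.4) and EGFL7 (52.7). Single markers changed in both directions. CDH5 rose from 10.3 ± 1.00 to 18.1 ± 3.17 CPM (log2 fold change 0.81 ± 0.11 SE), while ROBO4 (-0.75 ± 0.17), SOX18 (-0.33 ± 0.11) and MMRN2 (-1.75 ± 0.57) fell. MMRN2 was near the floor, at 0.72 ± 0.20 CPM in control and 0.21 ± 0.20 CPM after OGD/R. By edgeR 3 of the 8 fell. By DESeq2 3 that were lower had an unadjusted p under 0.05 and 2 an adjusted p under 0.05. DESeq2 gave no adjusted p for MMRN2. The SOX18 call was lost without control replicate 1 or 3 or OGD/R replicate 1 or 3, and that of MMRN2 without control replicate 3 or OGD/R replicate 2 or 3. Of 17 epithelial markers, 10 had a row. They summed to 2503 to 2729 CPM in control and 3065 to 3120 CPM after OGD/R, mostly KRT8, KRT18 and KRT7. In control the rest were EPCAM (52.3 CPM), ESRP1 (42.2), ELF3 (41.2), CLDN4 (21.2), MARVELD2 (17.5), CDH1 (1.19) and ESRP2 (0.37). Of the 10 with a row, KRT7, KRT8, KRT18 and ELF3 rose by edgeR and 0 fell, as by DESeq2 and limma-voom. By edgeR 10.2% of all genes rose and 9.48% fell. The edgeR values of 5 of the 10 were below 0, and 2 of these had an unadjusted p under 0.05. With trends on transcript length and GC content removed, 4 rose and 1 fell, namely ESRP1 (-0.20, edgeR adjusted p 0.0216). The ELF3 call was lost without control replicate 1, OGD/R replicate 1 or OGD/R replicate 3 and with scaling by total counts (adjusted p 0.0694). That of KRT7 was lost without control replicate 1. The pericyte and astrocyte lists had 4 of 8 and 2 of 7 members with a row and summed to at most 12.5 and 10.3 CPM in any library. The epithelial sum moved with OGD/R in the same direction as most of the cycle genes, and its part in their change was not tested. In bulk libraries fewer cells of a type and less RNA per cell cannot be told apart.

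After OGD/R, 6 of the 9 cycle genes rose and 1 fell (edgeR, quasi-likelihood F-test, false discovery threshold 0.05). Of all genes tested 19.7% passed, with 10.2% higher and 9.48% lower. CS, IDH3B, SUCLG1, SUCLG2, FH and MDH2 rose, by 10.1% (MDH2) to 20.4% (SUCLG2). DLST fell by 7.92%. IDH3A and OGDH did not pass. With trends on transcript length and GC content removed, 3 of the 9 rose and 1 fell, where 10.4% of all genes rose and 8.95% fell. The count of 1 that fell became 0 with RLE or upper-quartile scaling and with limma-voom. The median log2 fold change (OGD/R over control) of the 9 genes was 0.16, against -0.0046 over all genes, and with those trends removed it was 0.09, against -0.01. The changes were small: the 7 called cycle genes had a median absolute log2 fold change of 0.17, against 0.26 over all 3370 called genes. In the same 7 genes the OGD/R libraries lay wholly on one side of the control libraries, 6 above and 1 below. Of all genes 33% had such separate groups, with 16.4% above and 16.6% below. Summed over the 9 genes, the level was 1114 to 1138 CPM in control and 1197 to 1226 CPM after OGD/R. These 9 genes were picked with earlier results of the same libraries known, so their direction is not independent evidence.

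**Figure D1:**
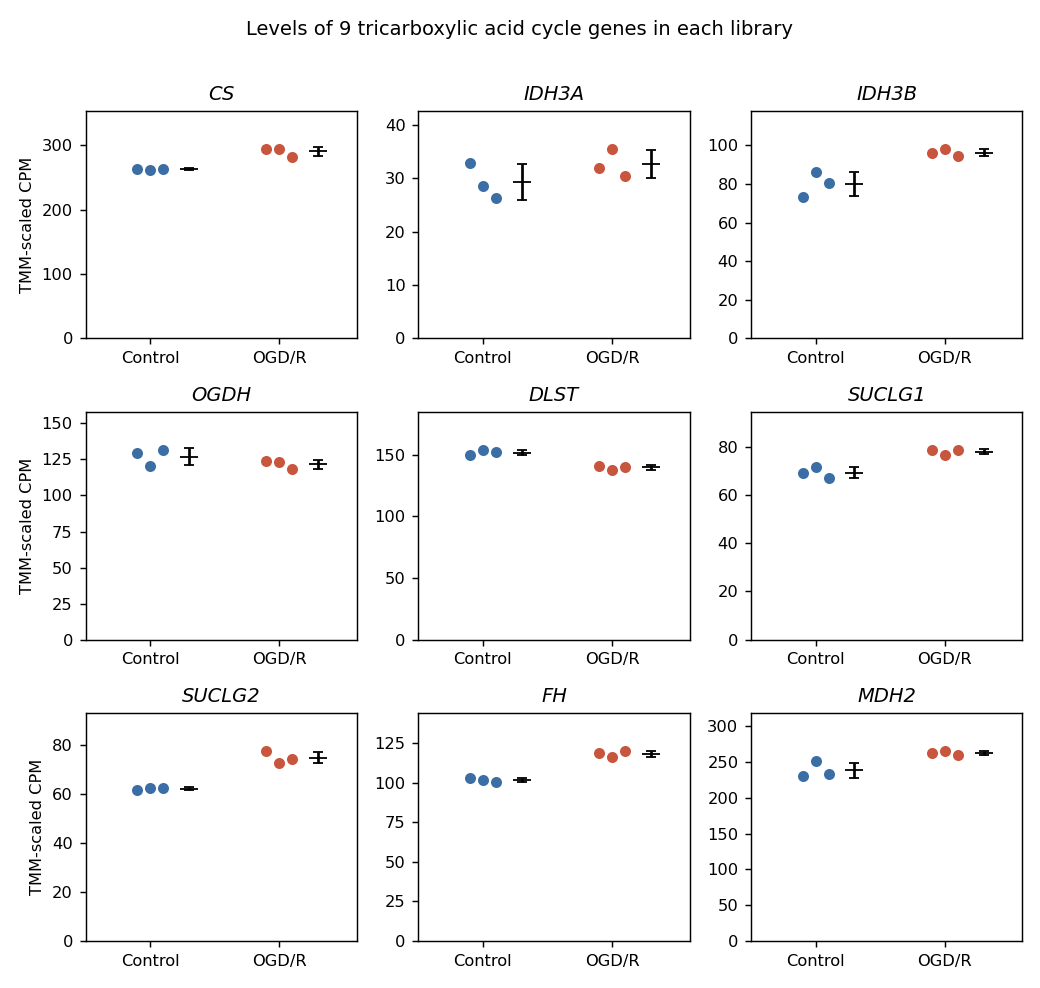
Level of each cycle gene in TMM-scaled CPM (vertical axis from 0) in the 3 control (blue) and 3 OGD/R libraries (red). Each point is 1 library, and the bar beside the points is the mean with the SD. The groups are separate in 7 panels and overlap for IDH3A and OGDH.

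The promoters of 4 members are shown because IDH3B, SUCLG2 and FH had the smallest p among those that rose and DLST was the member that fell. RefSeq promoter windows of GRCh38.p14, 250 bases before to 50 after the gene's start, were at hand for 8 of the 9 members, with OGDH the one without. Each is given 5′ to 3′ on the gene's strand. Capitals mark matches, on both strands, to CCGGAAGT (a site of ETS-family factors), the palindromic site of nuclear respiratory factor 1 and GGGCGG (the GC box). The windows are chr20:2664167-2664466 on the minus strand for IDH3B, chr3:67654563-67654862 on the minus strand for SUCLG2, chr1:241519706-241520005 on the minus strand for FH and chr14:74881666-74881965 on the plus strand for DLST.
IDH3B: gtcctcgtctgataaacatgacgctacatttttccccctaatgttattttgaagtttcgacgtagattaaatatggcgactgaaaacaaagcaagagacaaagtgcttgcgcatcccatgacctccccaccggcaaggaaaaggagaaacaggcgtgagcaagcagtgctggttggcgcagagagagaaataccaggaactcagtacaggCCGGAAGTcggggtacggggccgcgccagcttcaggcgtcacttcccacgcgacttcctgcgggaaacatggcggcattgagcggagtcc
SUCLG2: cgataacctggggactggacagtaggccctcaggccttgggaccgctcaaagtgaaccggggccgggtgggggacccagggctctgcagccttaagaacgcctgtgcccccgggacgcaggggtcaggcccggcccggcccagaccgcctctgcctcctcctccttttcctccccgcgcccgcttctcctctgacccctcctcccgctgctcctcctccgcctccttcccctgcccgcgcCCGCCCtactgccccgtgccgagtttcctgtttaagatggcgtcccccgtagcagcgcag
FH: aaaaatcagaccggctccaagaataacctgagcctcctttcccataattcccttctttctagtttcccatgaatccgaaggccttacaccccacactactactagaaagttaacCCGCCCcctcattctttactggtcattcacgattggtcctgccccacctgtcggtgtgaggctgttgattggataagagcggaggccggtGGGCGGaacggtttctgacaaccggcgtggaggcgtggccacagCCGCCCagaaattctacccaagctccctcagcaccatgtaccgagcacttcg
DLST: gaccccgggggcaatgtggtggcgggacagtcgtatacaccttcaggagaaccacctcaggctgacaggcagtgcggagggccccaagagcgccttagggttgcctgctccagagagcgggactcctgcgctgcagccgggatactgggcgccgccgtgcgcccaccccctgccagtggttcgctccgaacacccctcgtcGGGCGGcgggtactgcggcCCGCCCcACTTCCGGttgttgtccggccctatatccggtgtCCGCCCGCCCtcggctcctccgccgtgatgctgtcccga
In the IDH3B window 1 ETS match starts 40 bases before the gene's start. The DLST window holds 1 as well, 23 bases before the start, beside 4 GC boxes, a pair of which overlap each other by 2 bases. So this match stood both in a gene that rose and in the gene that fell. The MDH2 window holds 2 ETS matches, 113 and 69 bases before the start. In all, 3 of the 8 member windows hold the ETS letters, as do 4.14% of all 35116 windows of this length. The nuclear respiratory factor 1 site was matched for IDH3A alone among the 8 (5.78% of all windows). GC boxes were found in 5 of the 8, namely CS, IDH3A, DLST, SUCLG2 and FH (45.0% of all windows). The core of the hypoxia response element, ACGTG, was in 0 of the 8 windows (21.4% of all windows), which says only that these letters are not in these 300 bases.

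CS encodes citrate synthase, which joins acetyl-CoA to oxaloacetate and so opens the cycle. CS was at 264, 262 and 264 CPM in control replicates 1, 2 and 3, and at 295, 295 and 282 CPM in OGD/R replicates 1, 2 and 3. The control libraries were nearly equal and every OGD/R library was above them. The mean rose from 263 ± 0.92 to 291 ± 7.55 CPM (SD, 3 libraries a group), a log2 fold change of 0.14 with an SE of 0.04 (edgeR adjusted p = 0.00829). Without OGD/R replicate 2 the adjusted p was 0.0653, within 0.00167 to 0.0653 over all alternatives.

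NAD-dependent isocitrate dehydrogenase is built from the catalytic subunit IDH3A and the subunits IDH3B and IDH3G, and it releases the first carbon dioxide of the cycle. IDH3B was at 73.5, 86.1 and 80.4 CPM in control and at 96.0, 98.4 and 94.6 CPM after OGD/R. All 3 OGD/R libraries were above all 3 control libraries, with control replicate 1 the lowest. IDH3B rose from 80.0 ± 6.30 to 96.3 ± 1.91 CPM (0.27 ± 0.05, adjusted p = 0.000147), and it passed under each of 17 alternatives. IDH3A was at 32.9, 28.6 and 26.3 CPM in control and at 32.0, 35.6 and 30.5 CPM after OGD/R. Control replicate 1 was above OGD/R replicates 1 and 3, so the groups overlapped, and the difference (0.16 ± 0.08, adjusted p = 0.165) did not pass. Without control replicate 1 the IDH3A value was 0.26 and its adjusted p 0.0330, within 0.0330 to 0.577 over all alternatives. Of the IDH3A exon bases, 38.9% overlap another gene, with ACSBG1 sharing the most. The partner IDH3G, a regulatory subunit, rose from 47.8 ± 2.59 to 58.5 ± 4.56 CPM (0.29 ± 0.06, adjusted p = 0.000476). Of its exon bases, 10.2% overlap another gene, with SSR4 sharing the most. Thus 2 of the 3 subunits rose, and the third had a value of the same sign.

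The 2-oxoglutarate dehydrogenase complex makes succinyl-CoA and releases the second carbon dioxide. OGDH is its decarboxylase, DLST its lipoyl-bearing succinyltransferase core, and DLD the lipoamide dehydrogenase it shares with the pyruvate dehydrogenase complex. OGDH was at 129, 120.3 and 132 CPM in control and at 124, 123 and 118 CPM after OGD/R. The groups overlapped through control replicate 2, and the difference did not pass (-0.06 ± 0.05, adjusted p = 0.403). DLST was at 149, 154 and 152 CPM in control and at 141, 138 and 140.3 CPM after OGD/R. Each OGD/R library lay below each control library. The mean fell from 152 ± 2.27 to 140 ± 1.74 CPM (-0.12 ± 0.04, adjusted p = 0.0474). This call lay near the threshold: among the scalings, tools and omissions of a library it was lost with RLE scaling (adjusted p 0.0512), upper-quartile scaling (0.0660), limma-voom (0.0505) and in 5 of the 6 fits without 1 library (all but that without control replicate 1). With trends on transcript length and GC content removed it held, at 0.00386, within 0.00314 to 0.170 over all alternatives. DLD rose from 123 ± 4.02 to 139 ± 4.31 CPM (0.17 ± 0.05, adjusted p = 0.00489). The 3 components therefore had values of both signs. MRPS36, a small protein now known to join this complex, rose (0.28 ± 0.09, adjusted p = 0.0191), at 18.5 CPM in control. Its call was lost without control replicate 3 (adjusted p 0.145), OGD/R replicate 1 (0.0507) or OGD/R replicate 2 (0.0736), and after the length and GC correction (0.580, the highest over all alternatives, with 0.0116 the lowest). OGDHL, a close relative of OGDH, was at 1.5, 2.5 and 1.55 CPM in control and at 0.496, 0.817 and 1.19 CPM after OGD/R (-1.15 ± 0.34, adjusted p = 0.0104). The OGDHL call was lost without control replicate 2 (adjusted p 0.123) and without OGD/R replicate 1 (0.0798), within 0.00400 to 0.123 over all alternatives.

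Succinyl-CoA ligase converts succinyl-CoA to succinate and makes GTP or ATP. SUCLG1 is the alpha subunit common to both forms, SUCLG2 the beta subunit of the GTP form and SUCLA2 that of the ATP form. SUCLG2 was at 61.4, 62.5 and 62.4 CPM in control and at 77.4, 72.7 and 74.2 CPM after OGD/R. The lowest OGD/R library exceeded the highest control library by more than the spread within either group. SUCLG2 rose from 62.1 ± 0.58 to 74.7 ± 2.40 CPM (0.27 ± 0.05, adjusted p = 0.000209), and passed under each of 17 alternatives. SUCLG1 was at 69.0, 71.7 and 67.1 CPM in control and at 78.7, 76.8 and 78.8 CPM after OGD/R. These groups were separate too, and SUCLG1 rose from 69.2 ± 2.30 to 78.1 ± 1.14 CPM (0.17 ± 0.05, adjusted p = 0.0147). Its call was lost without control replicate 3 (adjusted p 0.0856) and without OGD/R replicate 3 (0.0563), and with scaling by total counts (0.0505). With length and GC trends removed the SUCLG1 value was 0.03 (adjusted p 0.709). SUCLA2 rose from 31.4 ± 1.38 to 36.9 ± 2.32 CPM (0.23 ± 0.07, adjusted p = 0.0162), a call lost without control replicate 1 (0.0773), OGD/R replicate 2 (0.124) or OGD/R replicate 3 (0.0576), and with length and GC trends removed (0.0675). Of these 3 genes SUCLG2 alone passed after that correction.

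Succinate dehydrogenase, which is also respiratory complex II, oxidises succinate to fumarate and has 4 subunit genes. SDHB, the iron-sulfur subunit, rose from 62.8 ± 2.35 to 74.5 ± 2.31 CPM (0.25 ± 0.06, adjusted p = 0.000732), and SDHC, a membrane anchor, from 93.2 ± 6.52 to 104 ± 3.30 CPM (0.16 ± 0.05, adjusted p = 0.0236). The SDHC call was lost without control replicate 1 (adjusted p 0.184) or OGD/R replicate 3 (0.129) and with scaling by total counts (0.0751), within 2.29e-06 to 0.184 over all alternatives. SDHA, the flavoprotein, had 15.3 ± 0.92 CPM in control and 15.1 ± 1.05 CPM after OGD/R (-0.02 ± 0.10, adjusted p = 0.914). SDHD, the other anchor, had a value of 0.07 ± 0.06 (adjusted p = 0.502), and its sign turned after the length and GC correction (-0.10). Of 4 SDH assembly factor genes, 0 passed by edgeR, DESeq2 or limma-voom, and 0 had an unadjusted p under 0.05.

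FH encodes fumarase, which hydrates fumarate to malate. FH was at 103, 102 and 101 CPM in control and at 119, 116 and 120.0 CPM after OGD/R. The libraries of each group lay close together and the groups were far apart relative to that spread. FH rose from 102 ± 1.23 to 118 ± 2.04 CPM (0.22 ± 0.05, adjusted p = 0.000415), also in each of the 6 fits without 1 library. With length and GC trends removed the FH value was 0.09 and did not pass (adjusted p 0.113). MDH2, mitochondrial malate dehydrogenase, regenerates the oxaloacetate that citrate synthase uses. MDH2 was at 231, 251 and 234 CPM in control and at 263, 265 and 259 CPM after OGD/R. Control replicate 2 was the highest of its group and still lay below every OGD/R library. MDH2 rose from 238 ± 10.8 to 263 ± 3.11 CPM (0.14 ± 0.04, adjusted p = 0.0130). Its call was lost without control replicate 1 (adjusted p 0.0594), control replicate 3 (0.0804) or OGD/R replicate 2 (0.0775), with scaling by total counts (0.0558) and with length and GC trends removed (0.0704).

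**Figure D2:**
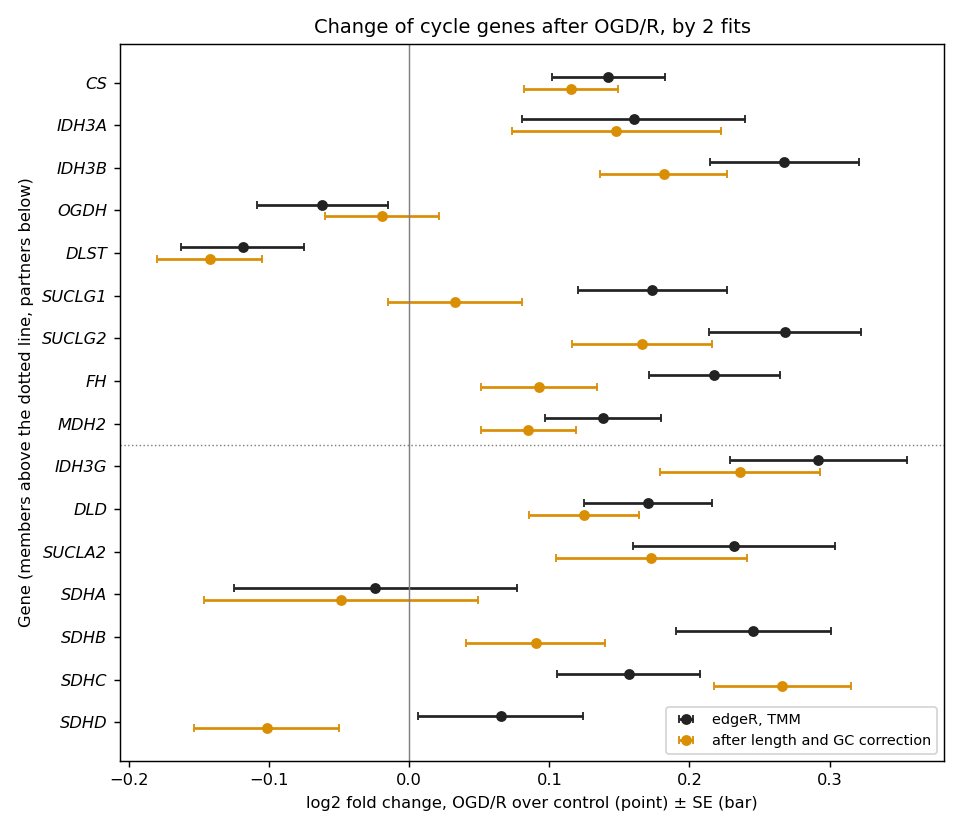
Log2 fold change of OGD/R over control (horizontal axis) with its SE for the 9 cycle genes and 7 partner subunits, from edgeR with TMM scaling (black) and with length and GC trends removed (orange). DLST lies below 0 in both fits, and SUCLG1 moves from 0.17 to 0.03.

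Transcript length bears on several of these values. Across 10848 protein-coding genes, Spearman's rho of the log2 fold change with the length of the longest annotated transcript was -0.36, a description, since genes do not vary independently. Split into 10 equal groups by length, the shortest genes had a median of 0.13 and the longest a median of -0.10. The cycle genes have annotated lengths of 1620 (IDH3B) to 4181 nucleotides (OGDH). A smooth trend on length and GC content was therefore removed from each library as an alternative. CS (0.12, adjusted p = 0.00936), IDH3B (0.18, adjusted p = 0.00219) and SUCLG2 (0.17, adjusted p = 0.0126) were the 3 that still passed. FH (0.09, adjusted p = 0.113), MDH2 (0.09, adjusted p = 0.0704) and SUCLG1 (0.03, adjusted p = 0.709) no longer did. Over all alternatives the adjusted p was 3.26e-05 to 0.113 for FH, 0.00118 to 0.0804 for MDH2 and 0.00736 to 0.715 for SUCLG1. With the longest coding transcript in place of the longest transcript, a choice made after seeing the data, 4 rose and 1 fell, where 10.5% of all genes rose and 8.3% fell, and MDH2 passed (adjusted p = 0.0401). The partners IDH3G, DLD and SDHC passed after the correction, while SUCLA2 and SDHB did not (adjusted p 0.0675 and 0.220). SDHC moved from 0.16 to 0.27 (edgeR adjusted p = 5.47e-05), a value that rests on an annotated transcript of 13566 nucleotides. Over all alternatives the adjusted p was 0.00865 to 0.165 for SUCLA2 and 0.000172 to 0.22 for SDHB.

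**Figure D3:**
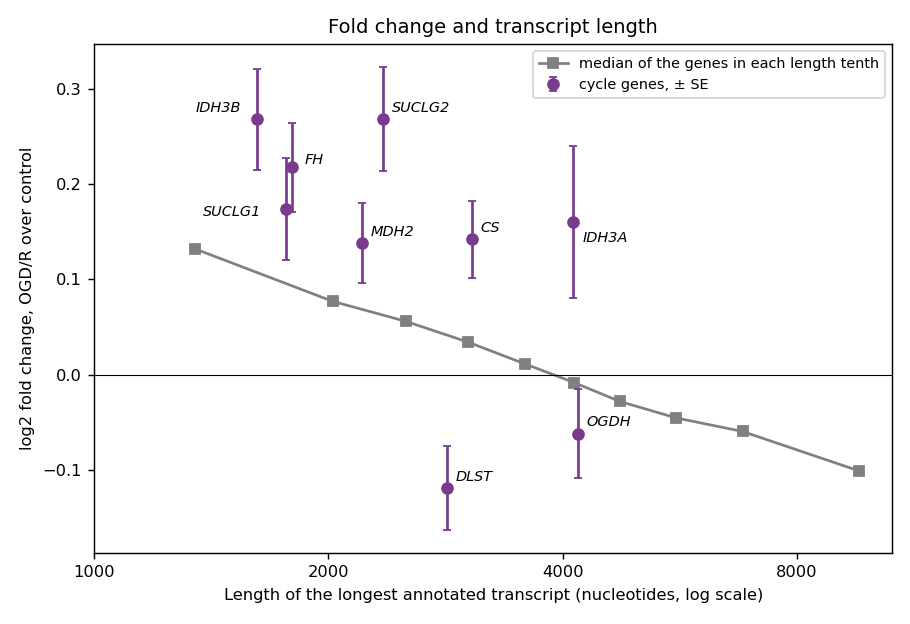
Log2 fold change of OGD/R over control (vertical axis, with SE for the cycle genes) against the longest annotated transcript in nucleotides (log scale). Grey squares are the medians of 10 equal groups of genes, placed at their median length and running from 0.13 to -0.10; 7 cycle genes lie above this line, and DLST and OGDH below it.

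To compare levels between the members, CPM values were divided by the length in kilobases of the longest coding transcript. In control MDH2 was the highest, at 108 ± 4.87 CPM per kilobase, followed by CS at 86.2 ± 0.30 and FH at 56.6 ± 0.68. DLST (53.5 ± 0.80), IDH3B (51.8 ± 4.08) and SUCLG1 (46.9 ± 1.56) came next, and within this trio the libraries of each gene overlapped those of its neighbour. OGDH was at 30.4 ± 1.43, SUCLG2 at 26.4 ± 0.24 and IDH3A at 7.09 ± 0.82 CPM per kilobase. Apart from that trio, the control libraries of neighbouring genes did not overlap. After OGD/R the first 3 places and the last were held by the same genes. DLST moved from place 4 to place 6, IDH3B from 5 to 4, and SUCLG1 from 6 to 5, while OGDH and SUCLG2 exchanged places 7 and 8. The low level of IDH3A rests on an annotated transcript of 4128 nucleotides, and a shorter one in the cells would raise it. It also rests on how shared reads were handled, which is uncertain, since 38.9% of the IDH3A exon bases overlap another gene.

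**Figure D4:**
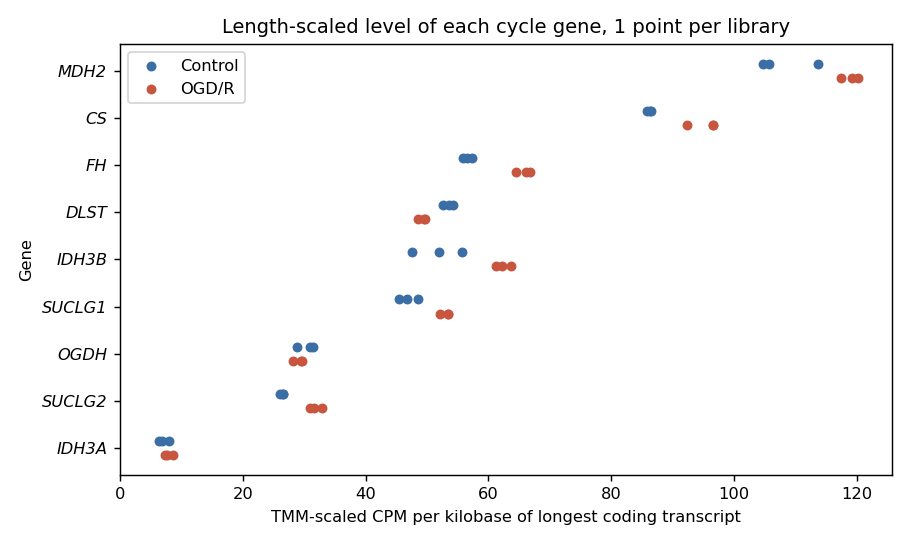
CPM per kilobase of the longest coding transcript (horizontal axis, from 0) for each cycle gene, 1 point per library, control in blue and OGD/R in red. MDH2 and CS lead in both groups, and IDH3A is the lowest.

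The spread between libraries differed among the members. The SD in control was 0.351% of the mean for CS and 0.927% for SUCLG2, but 11.6% for IDH3A and 7.88% for IDH3B. After OGD/R the SD was between 1.18% (MDH2) and 7.96% (IDH3A) of the mean. An SD from 3 libraries is uncertain, and these differences in spread were not tested. The control values of CS and SUCLG2 lie below what the counting of reads alone would give. Around the group means, IDH3B and MDH2 deviated together (Pearson's r = 0.89 over 6 libraries) and OGDH and SUCLG1 in opposite directions (-0.87), the extremes among 36 pairs; these are descriptions over 6 points that share libraries and scaling. The genes most like IDH3B over the 6 libraries, outside the lists used here and with at least 5 CPM, were DBNL, ATP5MC3 and GPX1, with Pearson's r of 0.996, 0.995 and 0.994. This likeness includes the difference between the groups.

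Ratios between partner subunits were compared by an exact two-sided permutation test over libraries, in which 3 against 3 cannot give a p below 0.1. The ratio of SUCLG2 to SUCLA2 was 1.98 ± 0.07 in control and 2.03 ± 0.20 after OGD/R (SD, n = 3 each, difference of log2 ratios 0.04 ± 0.08 SE, exact p = 0.8). IDH3B to IDH3A was 2.77 ± 0.47 and 2.95 ± 0.17 (0.11 ± 0.16, exact p = 0.7), with control replicate 1 the lowest library at 2.23. DLST to OGDH was 1.20 ± 0.07 and 1.15 ± 0.04 (-0.06 ± 0.06, exact p = 0.4). Adjusted over the 3 ratios, each exact p was 0.8, and the groups overlapped in all 3. The signs of the first 2 turned to -0.04 without OGD/R replicate 1 and without control replicate 1 respectively.

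**Figure D5:**
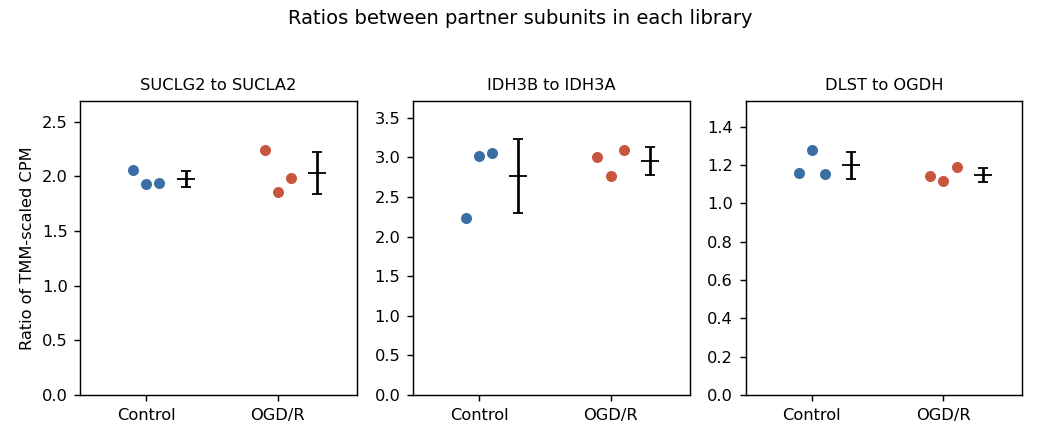
Ratio of TMM-scaled CPM (vertical axis, from 0) between partner subunits in each library, with mean and SD beside the points. Control and OGD/R libraries overlap in all 3 panels.

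Pyruvate reaches the cycle through its mitochondrial carrier and the pyruvate dehydrogenase complex. Of 12 measured genes of this entry, 3 rose and 2 fell, where 10.2% of all genes rose and 9.48% fell. The median log2 fold change of the 12 was 0.04. PDHB, the beta subunit of the first enzyme, rose from 43.9 ± 3.58 to 57.0 ± 2.77 CPM (0.38 ± 0.06, adjusted p = 1.31e-05). MPC2, a carrier subunit (0.40 ± 0.10), and DLAT, the acetyltransferase core (0.14 ± 0.05), also rose. The MPC2 call was lost without OGD/R replicate 3 (adjusted p 0.0904), and 22.5% of the MPC2 exon bases overlap another gene, with DCAF6 sharing the most. That of DLAT was lost without control replicate 2 or 3 or OGD/R replicate 2 or 3 (up to 0.188) and with scaling by total counts (0.113). PDPR, a regulator of the phosphatase that activates the complex, fell (-0.28 ± 0.06), as did PDP2 (-0.21 ± 0.06), a catalytic subunit at 48.6 CPM in control. The other catalytic subunit PDP1, at 143 CPM in control, did not pass (-0.04 ± 0.05, edgeR adjusted p = 0.646). The PDP2 call was also lost without control replicate 3 (0.0513) or OGD/R replicate 1 (0.123), and 19.6% of the PDPR exon bases overlap another gene. Both calls were lost after the length and GC correction (adjusted p 0.0598 and 0.0967, within 9.11e-05 to 0.0732 and 0.00422 to 0.123 over all alternatives). The kinases that restrain the complex, PDK1 (0.04) and PDK3 (-0.03), did not pass. DLST, DLAT and other enzymes carry lipoate; of 8 measured genes of lipoate synthesis and transfer, NDUFAB1, the mitochondrial acyl carrier protein, rose (0.33 ± 0.07) and the other 7 did not pass. That call was lost after the length and GC correction (0.14, adjusted p 0.120, within 3.65e-05 to 0.127 over all alternatives).

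Other routes refill or drain the cycle. Of 13 measured genes of anaplerosis and glutamine entry, 2 rose and 2 fell, where 10.2% of all genes rose and 9.48% fell. The median of the 13 was -0.03. GLUD1, glutamate dehydrogenase, rose from 142 ± 4.8 to 161 ± 5.67 CPM (0.18 ± 0.04), and GOT2, the mitochondrial aspartate aminotransferase, from 216 ± 2.09 to 235 ± 1.05 CPM (0.12 ± 0.04). Exon bases of GLUD1 overlap another gene at 13.2%. PCK2, mitochondrial phosphoenolpyruvate carboxykinase, fell from 65.9 ± 6.69 to 45.6 ± 2.87 CPM (-0.53 ± 0.06, adjusted p = 1.38e-08), the largest change of this list among genes that passed. ALDH5A1, which makes succinate from the GABA shunt, fell (-0.23 ± 0.09, adjusted p = 0.0476). The GOT2 call was lost in 4 of the 6 fits without 1 library (all but those without control replicate 1 or 2) and that of ALDH5A1 in 5 (all but that without control replicate 1). With scaling by total counts the GOT2 call was lost (adjusted p 0.107), and with upper-quartile scaling that of ALDH5A1 (0.0558). Both calls ended after the length and GC correction (adjusted p 0.116 and 0.115, within 0.00667 to 0.116 and 0.0228 to 0.166 over all alternatives). PC (-0.15), pyruvate carboxylase, did not pass.

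Enzymes outside the matrix that act on the same metabolites were higher in most cases. Of 5 cytosolic counterparts, 4 rose and the other did not pass, with a median of 0.20. Among all genes 10.2% rose. MDH1, cytosolic malate dehydrogenase, rose from 168 ± 4.11 to 211 ± 7.57 CPM (0.32 ± 0.04, adjusted p = 8.24e-08). ACLY, which splits exported citrate into acetyl-CoA and oxaloacetate, rose from 404 ± 5.10 to 457 ± 3.49 CPM (0.18 ± 0.04). ACO1, cytosolic aconitase (0.20 ± 0.05), and ME1, cytosolic malic enzyme (0.20 ± 0.06), rose as well. The ME1 call was lost without OGD/R replicate 2 (adjusted p 0.0615) and after the length and GC correction (0.0530), within 0.00322 to 0.0615 over all alternatives. Of the pair of NADP-dependent isocitrate dehydrogenases, the cytosolic IDH1 rose from 105 ± 5.02 to 133 ± 4.07 CPM (0.35 ± 0.05, adjusted p = 1.51e-07), and the mitochondrial IDH2 had a value of 0.11 ± 0.07 (adjusted p = 0.245). Of 8 mitochondrial carriers of cycle intermediates, 2 rose, where 10.2% of all genes rose, and the other 6 did not pass. The median of the 8 was 0.23. That median includes SLC25A18 (0.56) and SLC25A21 (0.27), which were near the floor at 1.04 and 1.28 CPM in control. SLC25A1, the citrate carrier, rose from 178 ± 2.34 to 237 ± 6.19 CPM (0.42 ± 0.04, adjusted p = 7.91e-11), and SLC25A13, an aspartate-glutamate carrier, from 40.2 ± 1.99 to 48.8 ± 4.36 CPM (0.28 ± 0.07, adjusted p = 0.00170).

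Among 8 measured regulators of mitochondrial biogenesis, 2 fell, where 9.48% of all genes fell, and the other 6 did not pass. The median of the 8 was 0.01. PPARGC1B, a coactivator of mitochondrial genes, fell from 23.1 ± 2.30 to 16.2 ± 0.94 CPM (-0.51 ± 0.09, adjusted p = 3.95e-05), and its relative PPRC1 from 89.1 ± 4.84 to 75.9 ± 2.46 CPM (-0.23 ± 0.05, adjusted p = 0.000959). NRF1, which encodes nuclear respiratory factor 1 (0.08 ± 0.09), GABPA, an ETS-family factor (0.03 ± 0.07), and TFAM, the mitochondrial transcription factor (0.08 ± 0.05), did not pass.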

How the data were processed

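RNA-seq libraries of HBMEC, 3 control and 3 OGD/R, were built with NEBNext Ultra reagents, per the labels. The deposited table holds raw counts of reads for genes under Ensembl IDs. The submitters' processing notes list featureCounts, HISAT2, Trimmomatic, SAMtools and edgeR, without versions, and name the build GRCm38, a mouse build, although the IDs are human. The build, the strandedness and the handling of shared reads are therefore uncertain, and related or overlapping genes can share counts. In each of the 17104 genes 3 or more libraries reach 10 counts, which points to a filter ahead of deposit; 17093 IDs matched a symbol.

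Counts were TMM-scaled and tested with edgeR 4.0.16 (R 4.3.3) by the robust quasi-likelihood test on all 6 libraries, two-sided, with Benjamini-Hochberg adjustment over all genes and a threshold of 0.05. filterByExpr (minimum count 10) removed 0 genes, so the alternative without a filter shows nothing, and the 9 members passed. Standard errors come from the fold change and the F statistic. The test and the length correction were tested on simulated data. Members and gene lists were chosen with earlier results of these data known. All members are named, with direct partner subunits and up to 4 called genes of smallest p per further list. For pyruvate entry all called genes are named, DLAT beyond that limit. IDH2, PC and other uncalled genes were added after their values were seen. Some genes of these lists are not reported here. Alternatives were DESeq2 1.42.0, limma-voom (limma 3.58.1), scaling by RLE, upper quartile or total counts, a floor of 1 CPM in 3 libraries, removal of the 16 genes of mitochondrial DNA, a block on the replicate number, a smooth trend (mgcv 1.9.3) on GENCODE 29 transcript length and GC content, known for 96.6% of genes, and leaving out each library.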

Additional observations from a re-analysis of the deposited data

How the results depend on the processing

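All 9 members kept their direction under every alternative run. IDH3B and SUCLG2 passed under each of 17, FH under 14, CS under 16, SUCLG1 and MDH2 under 11 each, DLST under 8, IDH3A under 1 and OGDH under 0. The number of members that rose was 3 after the length and GC correction, with or without the replicate block, and 4 to 6 without 1 library. The number that fell was 0 with RLE or upper-quartile scaling, with limma-voom and with the replicate block, and 0 to 1 without 1 library; the cause was not tested. Calls over all genes were 2383 to 3367 without 1 library. Scaling by total counts moved their split from 1749 higher and 1621 lower to 1383 and 2098, and the median of all genes from -0.0046 to -0.03. The labels do not say that the replicate numbers pair the libraries. Deviations of same-numbered libraries correlated at -0.00087, 0.08 and -0.0077, and not every library correlated best with its own number. With 3 libraries a group, these values cannot exclude a pairing. The block gave 3529 calls in place of 3370. Without 1 library, the log2 ratio difference was -0.0387 (without OGD/R replicate 1) to 0.0967 for SUCLG2 to SUCLA2, -0.0415 (without control replicate 1) to 0.186 for IDH3B to IDH3A and -0.0830 to -0.00853 for DLST to OGDH. The size that passed differed between genes: DLST passed at -0.12, and IDH3A, at a lower level, did not at 0.16.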
